A study of Mus musculus with 28 samples.

Results

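The response of a tumour cell line to an inhibitor of glucose uptake and to an inflammatory cytokine was compared with the response to both together, gene by gene, to find transcripts at which the agents did not add up. The cells are LLC, an established line from a mouse lung tumour. GLUT1, the glucose transporter that Slc2a1 encodes, is the target of the inhibitor BAY-876, and TNF is the cytokine. The 12 libraries fell into 4 groups of 3: control cells without either agent, which carry a vehicle label, cells given 200 nM BAY-876, cells given 20 ng/ml TNF, and cells given both. Cells had BAY-876 or no inhibitor for 24 h and then TNF or no cytokine for 32 h. Whether the inhibitor stayed on during the second step is not stated. All groups share the same parental line, and the labels name no clone. For 2 of the 3 combination libraries the treatment label gives another compound number than the title, and both were grouped by title.

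The quantity described is the interaction contrast. It is the response to BAY-876 in the presence of TNF minus the response to BAY-876 in its absence, and by construction it equals the same difference for TNF with and without BAY-876. It was computed on log2(TPM + 1), where TPM is a gene's length-corrected share of its library's transcripts. A contrast of 0 means that the agents added up on the log2 scale, which is to say that their fold changes multiplied. A contrast above 0 means that the combination stood higher than that expectation, and below 0 that it stood lower. Of the 55291 genes listed, 12780 had at least 1 TPM in at least 3 of the 12 libraries and were tested. A gene is called where limma's Benjamini-Hochberg adjusted p was under 0.05.

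As background, cells that run short of glucose or amino acids phosphorylate the initiation factor eIF2, which slows most translation and favours that of the transcription factor ATF4. ATF4 then drives genes of amino acid synthesis and uptake through composite elements in their promoters, and the programme is called the integrated stress response. TNF acts largely through NF-kappaB, which raises chemokines, acute phase proteins and its own inhibitors. Glucose also feeds the pentose phosphate pathway, a source of the NADPH that antioxidant enzymes and lipid synthesis consume.

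The integrated stress response held the most called genes of the 26 gene lists examined, 9 of 30 tested (30%, against 1.56% of all genes). It was also the largest list tested. By share, the small lists of acute phase and complement (2 of 5) and glucose sensing (1 of 3) stood higher. Promoters of the stress response genes are shown first because 29 of the 30 had a contrast above 0. Promoter sequences were available from RefSeq (GRCm38.p6) for 6 of the 9 called stress genes, in 7 windows of 300 bases that run from 250 bases before the RefSeq start to 50 after. The amino acid response element in the form TGATGNAAT was found in 0 of these 7 windows on either strand, and in 0.422% of the 11857 windows of all tested genes. A shorter form, TGATGNAA, was then searched because the longer one gave no match. It lies within the longer form and was found in 4 of the 7 windows, against 2.08% of the windows of tested genes. In the whole stress response list it was in 8 of 29 windows (27.6%). The list was drawn up as known targets and regulators of this pathway, with earlier results of these data in view. More matches than in all genes could come from that choice, and they are not a result about the contrast. Below, the windows of the 4 genes are printed 5′ to 3′ on the strand of the gene, with the match in capitals. In Asns the match is on the gene's own strand. In the other 3 it is on the opposite strand, so the reverse complement of the short form is in capitals.

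Asns (chr6:7693160-7693459, minus strand): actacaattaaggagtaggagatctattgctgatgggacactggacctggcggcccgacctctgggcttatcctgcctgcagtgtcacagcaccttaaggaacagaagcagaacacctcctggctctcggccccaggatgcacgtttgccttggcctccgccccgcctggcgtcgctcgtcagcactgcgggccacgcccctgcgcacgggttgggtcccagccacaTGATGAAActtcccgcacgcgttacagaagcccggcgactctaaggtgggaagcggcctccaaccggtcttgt

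Chac1 (chr2:119350992-119351291, plus strand): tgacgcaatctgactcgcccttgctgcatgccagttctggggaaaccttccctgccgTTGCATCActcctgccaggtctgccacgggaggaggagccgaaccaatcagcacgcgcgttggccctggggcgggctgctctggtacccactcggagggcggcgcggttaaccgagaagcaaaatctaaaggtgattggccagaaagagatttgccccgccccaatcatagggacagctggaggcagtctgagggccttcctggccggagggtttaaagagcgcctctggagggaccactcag

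Pck2 (chr14:55540016-55540315, plus strand): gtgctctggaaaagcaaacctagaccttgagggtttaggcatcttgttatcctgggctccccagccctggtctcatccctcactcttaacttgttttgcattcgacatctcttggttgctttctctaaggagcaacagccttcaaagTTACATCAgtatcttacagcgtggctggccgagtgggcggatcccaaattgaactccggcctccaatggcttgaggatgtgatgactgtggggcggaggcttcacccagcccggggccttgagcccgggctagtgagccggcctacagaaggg

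Trib3 (chr2:152344011-152344310, minus strand): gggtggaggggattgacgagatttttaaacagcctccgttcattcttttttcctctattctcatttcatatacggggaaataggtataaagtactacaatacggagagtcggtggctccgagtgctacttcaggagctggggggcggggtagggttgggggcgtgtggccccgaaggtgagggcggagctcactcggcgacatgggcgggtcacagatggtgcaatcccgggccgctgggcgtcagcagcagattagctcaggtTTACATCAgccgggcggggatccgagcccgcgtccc

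The first base of the match lies 23 bases before the RefSeq start in Asns, 193 before it in Chac1 and 103 before it in Pck2. In Trib3 it is base 15 of the transcript. Over all called genes, the short form was in 8 of 85 windows (9.41%) of those above 0 and in 1 of 97 (1.03%) of those below 0. The 8 genes are Asns, Cdk5rap3, Chac1, Gars, Pck2, Serpinf1, Slc1a4 and Trib3, and the gene below 0 is Ifitm3. Of the 8, Asns, Chac1, Pck2 and Trib3 are the stress genes printed above, so the 2 counts are not separate results. A kappaB element of 10 letters was in 2 of 85 and 4 of 97 windows, against 1.64% of the windows of tested genes. An interferon-stimulated response element of 10 letters was in 4 of 85 and 2 of 97, against 2.85%. The longer amino acid response form was in 2 of 85 and 0 of 97. These are matches of letters and not binding sites, and both strands were searched for each.

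Facts of the libraries that bear on these values are few. Replicate libraries correlated at 0.985 to 0.989, 11884 to 12410 genes reached 1 TPM, and mitochondrial transcripts took 5.40 to 6.33% of the TPM. The labels do not say whether the replicates were separate cultures, so the p-values measure only the spread between these libraries. Summed markers of the LLC line were at 1313 to 1348 TPM in control and 1313 to 1384 with TNF. They were at 1107 to 1120 with BAY-876 and 1114 to 1197 with both, so each library with BAY-876 was below each without it. Summed markers of T cells were at 0 to 1.31, with Cd3d and Cd3e at 0. Those of 7 myeloid genes were at 2.49 to 5.37, with Adgre1, Itgam and Tyrobp at 0. The sum of 5 fibroblast markers was 51.7 to 55.0 TPM in control, 35.5 to 40.5 with BAY-876, 25.2 to 26.6 with TNF and 17.2 to 20.1 with both, with Thy1 at 0, and its part in the matrix gene contrasts was not tested. The fibroblast sum hides members that moved apart. Of the 3 fibroblast markers tested, 1 was called higher and 1 lower with BAY-876 alone, against 11.5% and 25.8% of all genes. Their median BAY-876 response was 0.29 without TNF and 0.61 with it. In bulk RNA, fewer cells of a kind and less RNA per cell cannot be told apart.

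Most genes did not depart measurably from additivity. Of the 12780 genes, 199 were called (1.56%), 94 above 0 (0.736%) and 105 below 0 (0.822%). At an unadjusted p under 0.05 there were 1899 genes, or 14.9%. The median contrast was 0.00, the 5th to 95th percentile ran from -0.41 to 0.46, and the median standard error was 0.14. For 7049 genes (55.2%) the 95% interval lay wholly within -0.5 to 0.5, so for these a departure of more than 0.5 on the log2 scale was outside the interval. For the rest the interval was wider or reached past that bound. Among the called genes, the median was 0.52 above 0 and -0.50 below, and 17 and 11 of them exceeded 1 in size. On the TPM scale itself, where additive means added TPM, 333 genes passed above 0 and 205 below. The count of 94 was 53, 47 and 62 without control replicates 1, 2 and 3, 47 and 52 without BAY-876 replicates 2 and 3, and 48 and 52 without TNF replicates 2 and 3. The count of 105 was 68 and 67 without BAY-876 replicates 2 and 3, and 62 without TNF replicate 2.

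**Figure D1:**
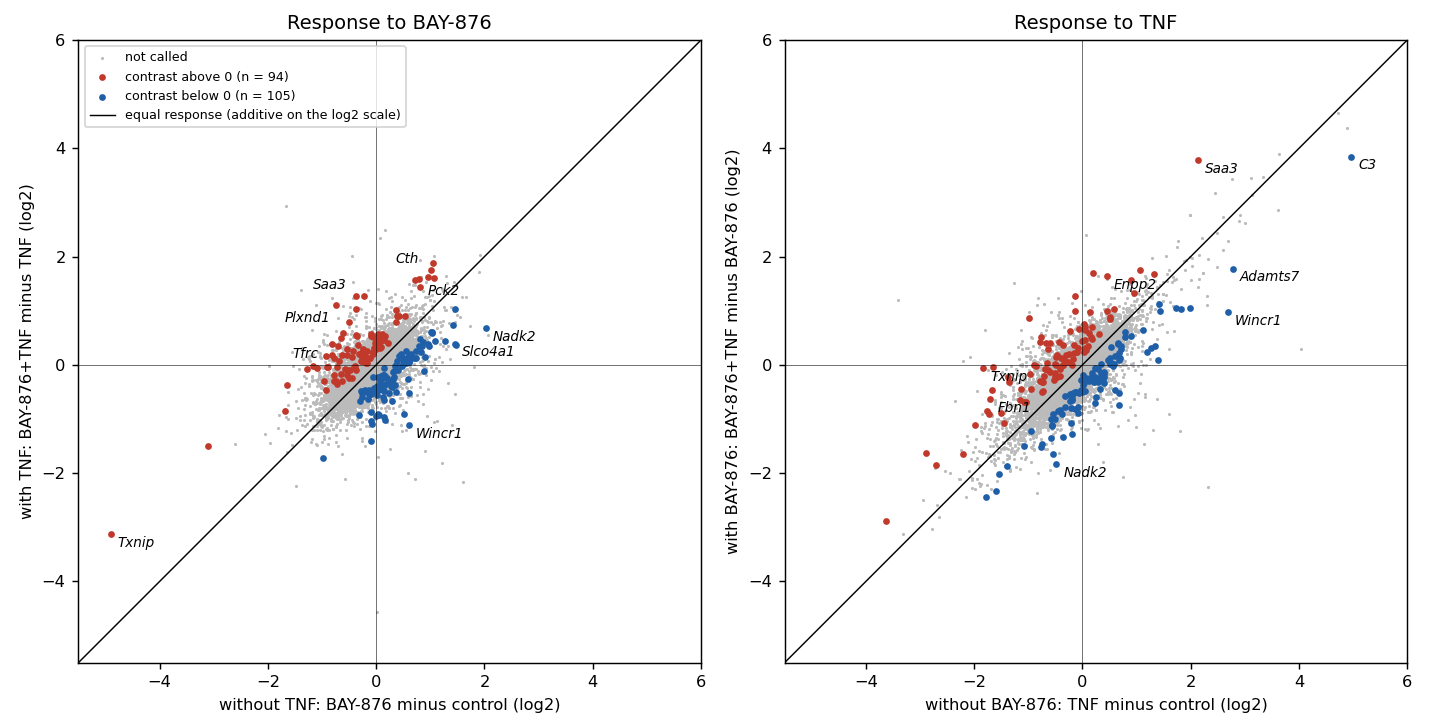
Each point is 1 of 12780 genes. The left panel plots the log2 response to BAY-876 without TNF (horizontal axis) against that with TNF (vertical axis), and the right panel the log2 response to TNF without and with BAY-876. The diagonal marks equal responses, red points are the 94 genes called above 0 and blue points the 105 called below 0. Genes scatter about the diagonal (correlation 0.627 on the left and 0.794 on the right), with Txnip, Saa3, Wincr1, C3 and Nadk2 among those far from it.

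The shape of the departure differed among the called genes. Above 0, the combination was the highest of the 4 groups by its mean in 40 genes, the lowest in 17 and between the others in 37. Below 0, it was the lowest in 46, the highest in 15 and between in 44. Over all 12780 genes tested it was the highest in 2410, the lowest in 4700 and between in 5670. The split of the genes below 0 is thus near that of all genes. Taken by the response to BAY-876, 17 of the 94 genes above 0 were called higher both without and with TNF, 17 were called lower without TNF and higher with it, and 29 were called lower without TNF and not called with it. A further 18 were called higher with TNF and not called without it, and 13 were called lower in both. Of the 105 genes below 0, 25 were called higher in both, 19 turned from higher to lower, 19 were called higher without TNF and not called with it, 32 were called lower with TNF and not called without it, and 10 were called lower in both. Over all genes tested, the response to BAY-876 was called in the same direction without and with TNF in 2993, and in opposite directions in 39. The single responses behind these classes use separate libraries.

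The spread of each response over genes stayed nearly the same. The standard deviation of the TNF response over genes was 0.484 without BAY-876 and 0.469 with it, a ratio of 0.970. For the BAY-876 response it was 0.361 without TNF and 0.348 with it, a ratio of 0.964. Equal spread does not mean equal values gene by gene. The responses without and with the other agent correlated over genes at 0.794 for TNF and 0.627 for BAY-876. TNF changed 5826 genes alone and 5644 in the presence of BAY-876, and 4286 were called in the same direction in both, or 73.6% and 75.9% of each list. BAY-876 changed 4776 and 4341 genes, with 2993 in common, or 62.7% and 68.9%. Leaving out single libraries moved the BAY-876 ratio between 0.925 and 1.01, and it stood at or above 1 without replicate 1 or 3 of the combination (1.00 and 1.01) or replicate 3 of TNF (1.01).

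Stress response genes stood above the additive expectation in the combination. Of 30 members tested, 9 were called above 0 (30%, against 0.736% of all genes) and 0 below, and 29 of the 30 had a contrast above 0. The list median was 0.33, against 0.00 for all genes tested. The median response of the list to BAY-876 was 0.58 without TNF and 0.85 with it. BAY-876 raised 23 of the 30 members without TNF, against 11.5% of all genes, and 29 with TNF, against 10.4%. The median response to TNF was -0.15 without BAY-876 and 0.12 with it. TNF lowered 15 members and raised 6 without the inhibitor, against 26.1% and 19.4% of all genes, and with the inhibitor it lowered 4 and raised 13, against 24.8% and 19.3%. In the separate 36 h experiment, where cells received vehicle or 200 nM BAY-876 with 3 libraries each, 27 of the 29 members measured rose with BAY-876, against 7.34% of all genes there, and 1 fell, against 7.1%. The list was drawn up as known targets and regulators of this pathway, with earlier results of these data in view.

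Pck2, the mitochondrial phosphoenolpyruvate carboxykinase (chr14:55540266-55551242, GRCm38), shows the pattern. It was at 112, 119.9 and 113 TPM in the control libraries, 203, 190.4 and 205 with BAY-876, 64.5, 56.9 and 53.7 with TNF, and 187, 175 and 169 with both. The libraries with TNF alone stood below all others. With BAY-876 present the TNF libraries were also lower, by 0.17 on the log2 scale against 0.97 without it. The additive expectation for the combination was 101 TPM and the observed geometric level 177, a contrast of 0.80 ± 0.09 (standard error; adjusted p = 0.00226). The annotated gene shares exon sequence with Gm10876 on the opposite strand, and the counting is not known to use strand.

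Cth, which encodes cystathionine gamma-lyase and makes cysteine, and Asns, asparagine synthetase, were highest in the combination. Cth (chr3:157894248-157925077) was at 13.3, 13.7 and 15.5 TPM in control, 29.0, 28.2 and 31.9 with BAY-876, 13.4, 12.2 and 14.8 with TNF, and 49.99, 47.8 and 44.7 with both. TNF alone overlapped the control libraries, and the combination lay above all 9 others. Its contrast was 0.73 ± 0.12 (adjusted p = 0.0116). Asns (chr6:7675169-7693254) was at 259.7, 272 and 266 TPM in control, 292, 281 and 285 with BAY-876, 239.7, 221 and 209 with TNF, and 341, 324 and 326 with both. TNF lowered Asns alone (-0.25, adjusted p = 0.000896) and raised it in the presence of BAY-876 (0.21, adjusted p = 0.00319). The contrast of Asns was 0.46 ± 0.07 (adjusted p = 0.00648).

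Slc3a2, the heavy chain shared by several amino acid transporters, differed in another way. It was at 325, 341 and 319 TPM in control, 354, 327 and 348 with BAY-876, 263, 255 and 253 with TNF, and 358, 338 and 335 with both. Only TNF alone stood apart, below the other 9 libraries, and the contrast was 0.35 ± 0.06 (adjusted p = 0.0116).

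The other 5 called members were Trib3, a pseudokinase that ATF4 induces, Chac1, which degrades glutathione, the folate enzyme Aldh1l2, the transcription factor Atf5 and the cationic amino acid transporter Slc7a3. They fall outside the naming rule and were named after their values were seen, to complete the 9. Trib3 was at 81.6, 99.7 and 96.0 TPM in control, 209, 182 and 191 with BAY-876, 58.7, 59.0 and 59.9 with TNF, and 180.2, 199 and 166 with both, a contrast of 0.53 (adjusted p = 0.0437). Chac1 was at 19.2, 19.5 and 18.7 TPM in control, 38.8, 31.9 and 33.1 with BAY-876, 12.2, 10.8 and 11.3 with TNF, and 33.3, 31.1 and 33.3 with both, a contrast of 0.62 (adjusted p = 0.0144). In both genes the combination overlapped BAY-876 alone, while TNF alone lay below control. Aldh1l2 had a contrast of 0.84 (adjusted p = 0.0234), Atf5 of 0.68 (adjusted p = 0.0277) and Slc7a3 of 0.85 (adjusted p = 0.0277).

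Atf4, Ddit3 and the serine synthesis genes Phgdh and Psat1 did not pass. Atf4 was at 548, 568 and 551 TPM in control, 924, 839 and 908 with BAY-876, 577, 561 and 561 with TNF, and 1091, 1033 and 989.6 with both. Its contrast of 0.19 had an adjusted p of 0.153. Ddit3, which encodes the transcription factor CHOP, had a contrast of 0.09 (95% interval -0.13 to 0.31, adjusted p = 0.761) although its mean was 74.0 TPM in control and 202 with BAY-876. For Phgdh and Psat1 the contrasts were 0.13 (adjusted p = 0.282) and 0.26 (adjusted p = 0.0519). On the TPM scale itself 12 members passed above 0, among them Pck2, Cth, Asns, Slc3a2 and Slc7a3, whereas Trib3 (adjusted p = 0.422), Chac1 (adjusted p = 0.245), Aldh1l2 (adjusted p = 0.279) and Atf5 (adjusted p = 0.951) did not. On that scale more of all genes passed above 0 as well, so the share of 0.736% is not its background. The count over all genes also moved among the alternatives. Over all alternatives the number of stress genes called above 0 ranged from 5 to 13. It was 5 without control replicate 2, without control replicate 3 or without BAY-876 replicate 3, and with no filter. Pck2, Asns, Cth, Slc3a2 and Chac1 passed in all 12 fits that left out 1 library, Aldh1l2 in 6, Slc7a3 in 4, and Atf5 and Trib3 in 3.

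**Figure D2:**
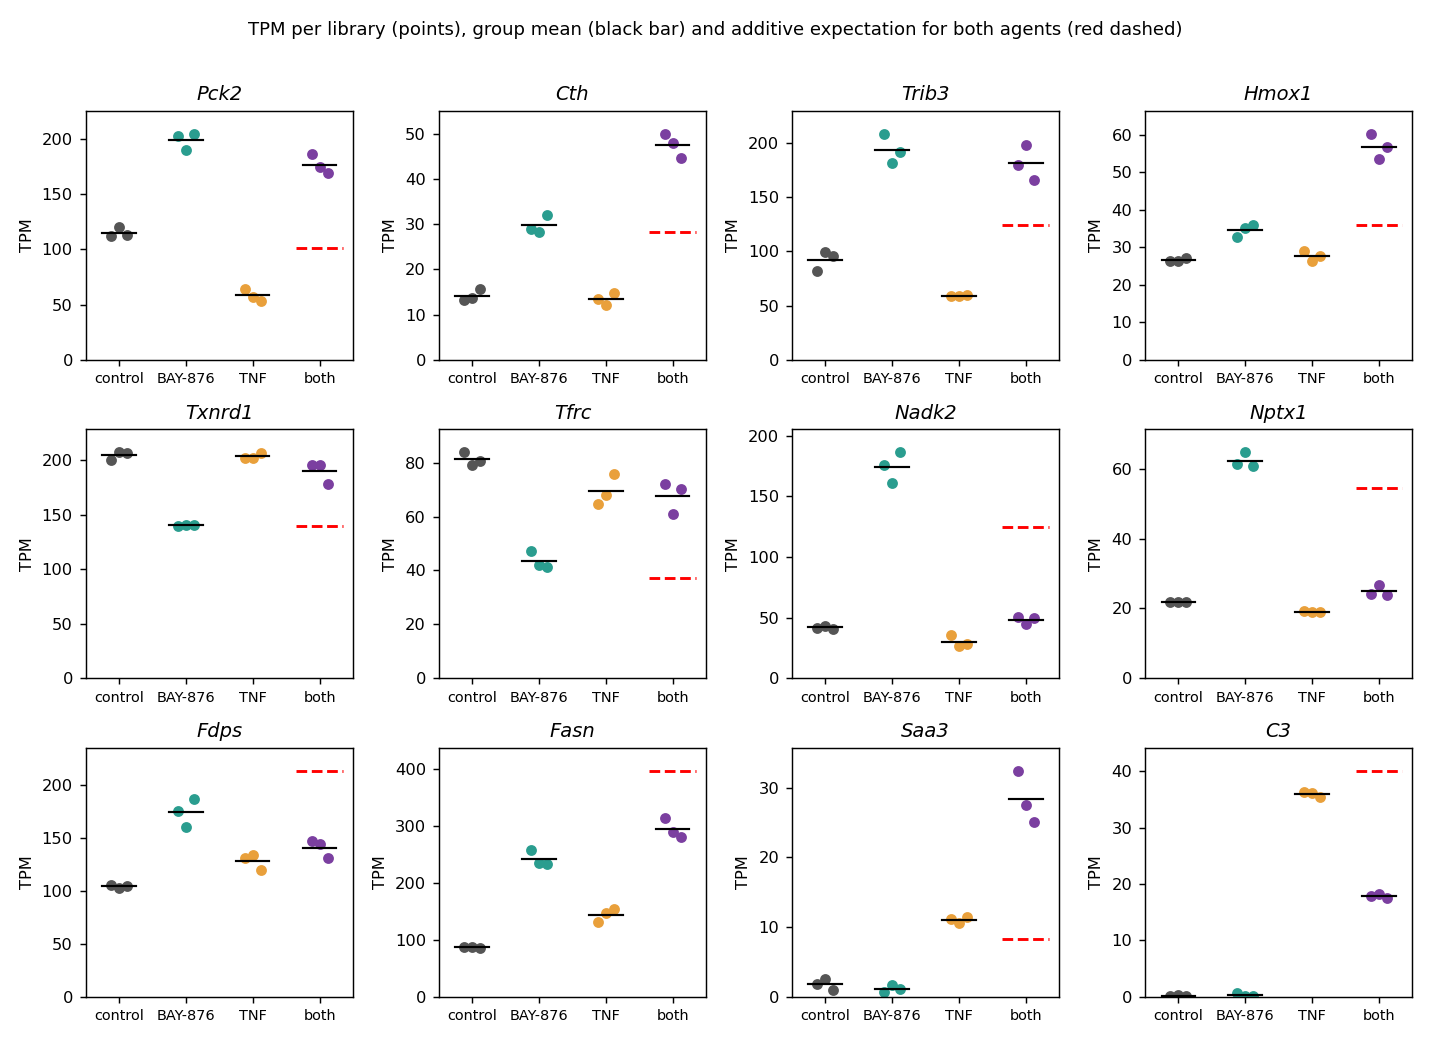
TPM in each of the 12 libraries (points) for 12 genes, by group (horizontal axis: control, BAY-876, TNF, both). Black bars are group means of 3 libraries and the red dashed line is the level expected for both agents if their log2 effects added. The combination lies above the line for Pck2, Cth, Trib3, Hmox1, Txnrd1, Tfrc and Saa3, and below it for Nadk2, Nptx1, Fdps, Fasn and C3.

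Antioxidant and NADPH-producing enzymes also stood above expectation. All 22 members tested had a contrast above 0, with a median of 0.21, and 5 were called (22.7%, against 0.736% of all genes). Without TNF, BAY-876 lowered 7 members and raised 3, against 25.8% and 11.5% of all genes. With TNF it lowered 3 and raised 12, against 23.6% and 10.4%. TNF alone raised 9 and lowered 7, against 19.4% and 26.1% of all genes, and with BAY-876 it raised 13 and lowered 3, against 19.3% and 24.8%.

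Hmox1, which encodes heme oxygenase, was at 26.2, 26.4 and 27.1 TPM in control, 32.8, 35.1 and 35.9 with BAY-876, 29.1, 26.4 and 27.6 with TNF, and 60.4, 53.6 and 56.8 with both. TNF alone did not separate from control, yet the combination lay above every other library (contrast 0.64 ± 0.08, adjusted p = 0.00379). Txnrd1, cytosolic thioredoxin reductase, was at 200.3, 207 and 206 TPM in control, 139.7, 141 and 140.1 with BAY-876, 202, 201 and 207 with TNF, and 196, 196 and 178 with both. The fall with BAY-876 (-0.54) was therefore -0.10 and not called in the presence of TNF (adjusted p = 0.0659), and the contrast was 0.44 ± 0.06 (adjusted p = 0.00337). Hmox1 lies at chr8:75093621-75100589 and Txnrd1 at chr10:82833951-82897712.

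The other 3 called members were Fth1, Pgd and Sod2. Fth1, the ferritin heavy chain, which stores iron, had means of 4805, 5052, 3457 and 4313 TPM in control, BAY-876, TNF and both (contrast 0.25, adjusted p = 0.00835). It has processed copies in the genome, and reads shared with them could not be told apart here. On the TPM scale itself its contrast did not pass (adjusted p = 0.643). Pgd, an NADPH-producing enzyme of the pentose phosphate pathway, was at 186, 186 and 184 TPM in control, 175, 174 and 181 with BAY-876, 219, 232 and 237 with TNF, and 262, 269 and 258 with both (contrast 0.27, adjusted p = 0.0225). Sod2, a mitochondrial superoxide dismutase and a known NF-kappaB target, had means of 163, 143, 412 and 457 TPM, with a contrast of 0.34 (adjusted p = 0.0408). Sod2 lies outside the naming rule. The count of 5 became 3 without control replicate 1 or 2, BAY-876 replicate 1 or 2, TNF replicate 2 or combination replicate 2, and with no filter. Hmox1, Txnrd1 and Fth1 passed in all 12 fits that left out 1 library, Pgd in 6 and Sod2 in 2.

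Tfrc, the transferrin receptor that brings iron into cells, was among the 12 highest contrasts of called genes with a group mean of at least 5 TPM, predicted genes left out (chr16:32608920-32632794). It was at 83.9, 79.0 and 80.7 TPM in control, 47.2, 42.1 and 41.3 with BAY-876, 64.6, 67.9 and 75.8 with TNF, and 72.2, 60.8 and 70.1 with both. BAY-876 alone took it below all other libraries, and in the presence of TNF the libraries with and without BAY-876 overlapped. The contrast was 0.85 ± 0.11 (adjusted p = 0.00379), and the 36 h libraries showed a fall of Tfrc with BAY-876 by 0.35 on the log2 scale (adjusted p = 0.0118). Blvrb, which encodes biliverdin reductase B, had means of 32.3, 25.3, 16.9 and 25.1 TPM in control, BAY-876, TNF and both. Its contrast was 0.89 ± 0.15 (adjusted p = 0.0158), with the TNF response at -0.89 without BAY-876 and not called with it (adjusted p = 0.987).

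Lipid synthesis departed in the other direction. Cholesterol synthesis genes had a median contrast of -0.30, 21 of 23 members were below 0, 3 were called below 0 (13.0%, against 0.822% of all genes) and 0 above. The median BAY-876 response was 0.52 alone, with 17 members higher and 0 lower, against 11.5% and 25.8% of all genes. In the presence of TNF it was 0.18, with 8 higher and 1 lower, against 10.4% and 23.6%. The median TNF response was 0.14 without BAY-876 and -0.21 with it. Fatty acid synthesis genes had a median of -0.37, with 11 of 12 members below 0 and 2 called below 0 (16.7%, against 0.822% of all genes). Their median BAY-876 response was 0.38 alone and 0.02 in the presence of TNF.

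Fdps, which makes farnesyl diphosphate, was at 105, 102 and 104 TPM in control, 175, 160.1 and 186 with BAY-876, 131, 133 and 119.7 with TNF, and 147, 144 and 130.4 with both. Each agent alone raised it, but the combination overlapped TNF alone and lay below BAY-876 alone. Its contrast was -0.60 ± 0.09 (adjusted p = 0.0076), where 213 TPM was expected. Msmo1, a sterol oxidase of the same pathway, had means of 26.1, 47.7, 37.8 and 48.4 TPM (contrast -0.50, adjusted p = 0.0187). The combination overlapped BAY-876 alone for Msmo1.

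Elovl6, which lengthens fatty acids, was at 33.5, 33.2 and 31.0 TPM in control, 49.4, 50.2 and 49.6 with BAY-876, 45.2, 42.7 and 40.9 with TNF, and 47.7, 44.1 and 41.6 with both (contrast -0.55, adjusted p = 0.00846). Fasn, fatty acid synthase, was at 88.2, 87.9 and 86.1 TPM in control, 258, 235 and 233 with BAY-876, 132, 147 and 154 with TNF, and 315, 289.8 and 281 with both (contrast -0.43, adjusted p = 0.0317). For Fasn the combination was the highest group, below the 398 TPM that multiplied fold changes gave, and on the TPM scale the contrast was -3.76 TPM with an adjusted p of 0.924. Fasn passed in 2 of the 12 fits that left out 1 library, and the count of 2 fatty acid genes became 1 in 9 of the 12. The cholesterol count of 3 became 5 without combination replicate 1, and Msmo1 did not pass without BAY-876 replicate 3 (adjusted p = 0.0544). Fdps and Elovl6 passed in all 12. Annotated exons of Fdps and Elovl6 overlap those of predicted genes, and reads of such pairs may not be told apart. The 36 h libraries gave BAY-876 responses of 0.24 for Fdps (adjusted p = 0.081), 0.26 for Fasn (adjusted p = 0.039) and -0.05 for Elovl6 (adjusted p = 0.624). Of the 23 cholesterol genes, 1 rose and 2 fell there, against 7.34% and 7.1% of all genes. Of the 12 fatty acid genes, 3 rose and 2 fell. The rise of most cholesterol genes with BAY-876 alone in the 32 h experiment was therefore not seen in the 36 h experiment. The experiments differ in more than time. The 32 h cells had a 24 h step with BAY-876 first, and no such step is given for the 36 h cells. The 36 h values are normalized counts and not TPM, with another filter. Which of these differences matters was not tested.

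Lpcat3, an acyltransferase that places polyunsaturated chains in membrane phospholipids, was among the 12 lowest contrasts of called genes under the same limits. Its means were 49.2, 63.8, 42.6 and 29.7 TPM in control, BAY-876, TNF and both, so that BAY-876 raised it alone (0.37, adjusted p = 0.00672) and lowered it in the presence of TNF (-0.50, adjusted p = 0.00111). The contrast was -0.87 ± 0.12 (adjusted p = 0.00659). Its exons overlap Emg1 on the opposite strand.

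**Figure D3:**
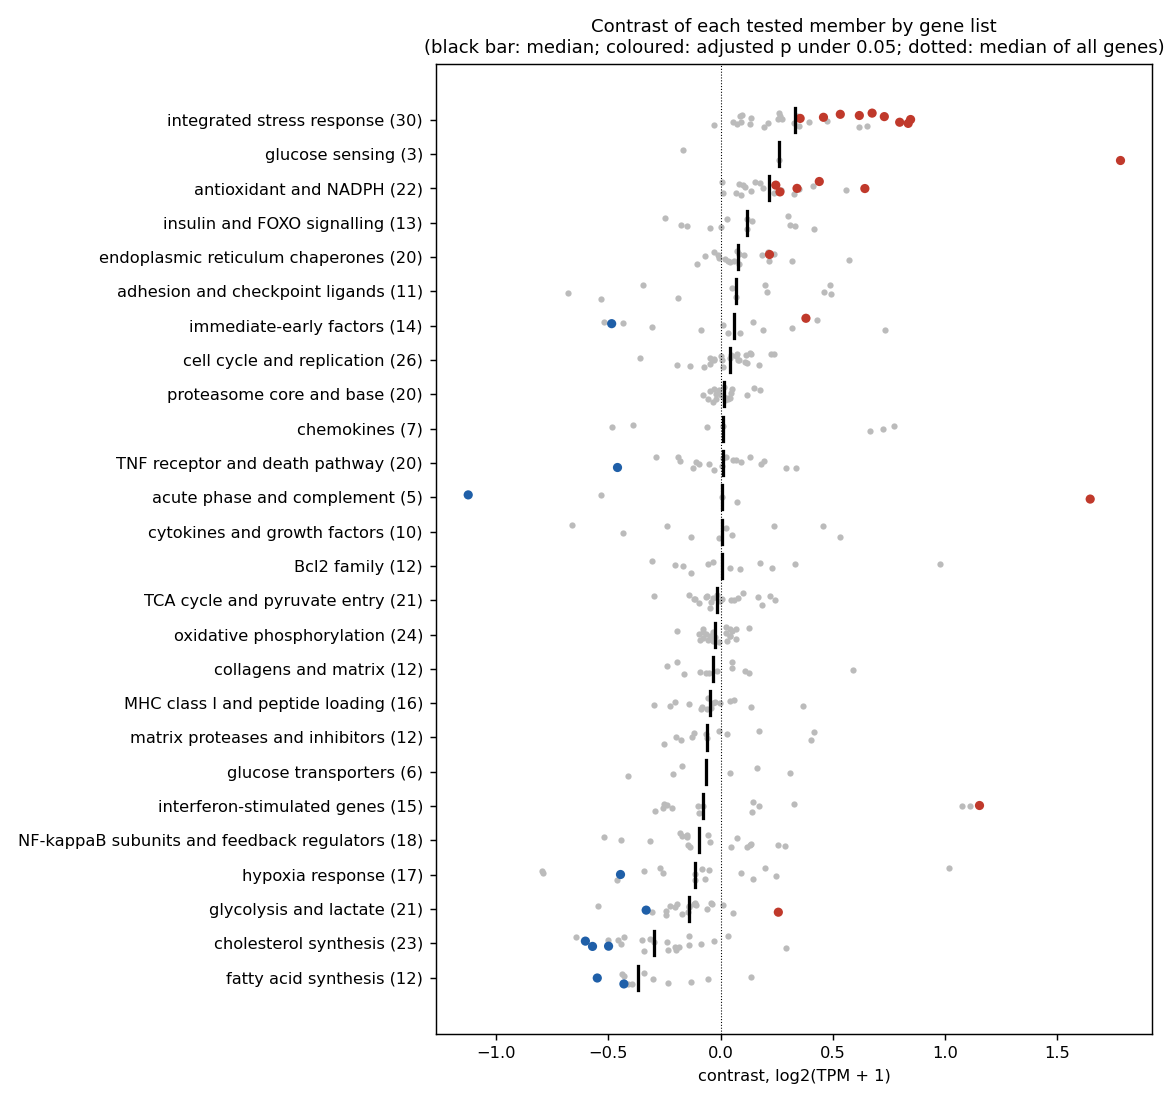
Contrast of each tested member (horizontal axis, log2) of 26 gene lists, ordered by list median (black bars), with the number tested in parentheses. Coloured points passed at an adjusted p under 0.05, red above 0 and blue below. The stress response and the antioxidant lists lie to the right of 0, and the cholesterol and fatty acid lists to the left.

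Nadk2, Nptx1 and Slco4a1 responded strongly to BAY-876 without TNF and far less with it. Nadk2, the mitochondrial NAD kinase (chr15:9071260-9110891), was at 41.9, 43.2 and 41.0 TPM in control, 176, 161 and 186 with BAY-876, 35.4, 26.7 and 28.0 with TNF, and 50.8, 44.4 and 49.5 with both. BAY-876 alone was far above all other libraries, and the combination only just cleared control. The combination stood at 48.2 TPM where 124 were expected, a contrast of -1.35 ± 0.13 (95% interval -1.64 to -1.06, adjusted p = 0.0021). Nptx1, neuronal pentraxin 1 (chr11:119538719-119547753), was at 21.9, 21.9 and 21.8 TPM in control, 61.5, 64.8 and 60.7 with BAY-876, 19.2, 19.0 and 18.9 with TNF, and 24.3, 26.8 and 23.9 with both. It had the same shape as Nadk2, with a contrast of -1.09 ± 0.08 (adjusted p = 0.00014). Slco4a1, an organic anion transporter family member (chr2:180456245-180474867), was at 18.0, 16.3 and 16.8 TPM in control, 49.7, 44.0 and 52.1 with BAY-876, 28.4, 24.8 and 26.3 with TNF, and 35.6, 32.4 and 37.2 with both. TNF raised it alone (0.61) and lowered it in the presence of BAY-876 (-0.46, adjusted p = 0.000575), a contrast of -1.06 ± 0.11 (adjusted p = 0.0021). Each of the 3 rose with BAY-876 in the 36 h libraries as well, Nadk2 by 0.47 (adjusted p = 0.00599), Nptx1 by 0.25 (adjusted p = 0.0319) and Slco4a1 by 0.61 (adjusted p = 0.014).

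Apln, which encodes the peptide ligand apelin, was raised by each agent alone and lowered by each in the presence of the other. Its libraries were at 30.7, 32.2 and 31.9 TPM in control, 50.6, 47.9 and 46.1 with BAY-876, 39.3, 36.4 and 37.8 with TNF, and 34.3, 32.0 and 28.6 with both. The combination overlapped control and lay below both single agents (contrast -0.85 ± 0.09, adjusted p = 0.00226). Clec1a, a C-type lectin receptor, had means of 16.5, 17.1, 12.6 and 6.16 TPM, with the combination below all other libraries (contrast -0.97 ± 0.11, adjusted p = 0.00226).

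Of 5 acute phase and complement genes tested, Saa3 was called above 0 and C3 below, against 0.736% and 0.822% of all genes. Saa3, an acute phase protein of the serum amyloid A family (chr7:46711998-46715700), was at 1.88, 2.54 and 1.02 TPM in control, 0.661, 1.63 and 1.18 with BAY-876, 11.2, 10.6 and 11.4 with TNF, and 32.4, 27.5 and 25.1 with both. BAY-876 overlapped control on its own, and the combination lay above TNF alone in every library (contrast 1.65 ± 0.29, adjusted p = 0.016). Saa3 has close relatives in the genome, and its contrast with a pseudocount of 0.1 had an adjusted p of 0.0619. C3, the central complement component (chr17:57203970-57228136), was at 0.163, 0.267 and 0.121 TPM in control, 0.73, 0.172 and 0.12 with BAY-876, 36.4, 36.1 and 35.5 with TNF, and 17.9, 18.2 and 17.5 with both. The TNF libraries held more C3 without the inhibitor than with it, and the contrast was -1.12 ± 0.20 (adjusted p = 0.019). With a pseudocount of 0.1 the contrast of C3 was -1.41 with an adjusted p of 0.266, and without TNF replicate 2 or 3 it did not pass either. Nor did C3 pass with no filter. The difference of the authors' deposited fold changes of C3 was -1.76 with an adjusted p of 0.313.

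Other genes that TNF raised less in the presence of BAY-876 were Wincr1, Adamts7, Col8a1, Stap2 and Ikbke. Wincr1, a long non-coding RNA (chr4:89050308-89084614), was at 1.88, 4.34 and 2.23 TPM in control, 4.44, 4.73 and 4.57 with BAY-876, 21.8, 25.8 and 20.6 with TNF, and 10.7, 10.7 and 8.53 with both. Its contrast of -1.72 ± 0.27 was the lowest called (adjusted p = 0.0105), and the difference of the fold changes in the authors' deposited table was -1.92 with an adjusted p of 0.135. Adamts7, a secreted metalloprotease, had means of 6.93, 13.5, 53.1 and 49.1 TPM (95% interval of the contrast -1.32 to -0.68, adjusted p = 0.00673), and on the TPM scale its contrast did not pass (adjusted p = 0.111). Ikbke, a kinase related to the IkappaB kinases, was at 6.20, 7.12 and 6.35 TPM in control, 6.97, 5.91 and 6.80 with BAY-876, 16.1, 17.4 and 17.7 with TNF, and 7.60, 9.91 and 7.81 with both. In Ikbke, BAY-876 overlapped control without TNF, and with TNF it separated from TNF alone downward (contrast -0.95 ± 0.15, adjusted p = 0.00924). Its exons overlap 2 predicted genes on the opposite strand. Col8a1, a collagen chain, had means of 4.37, 5.55, 11.3 and 6.78 TPM (contrast -0.95, adjusted p = 0.0106). Stap2, a signalling adaptor, had means of 1.21, 1.06, 7.74 and 3.24 TPM (contrast -0.95, adjusted p = 0.0205). It did not pass without BAY-876 replicate 1 or 3 or TNF replicate 2 or 3, nor with a pseudocount of 0.1 (adjusted p = 0.0889). The difference of the authors' deposited fold changes of Stap2 was -1.08 with an adjusted p of 0.46.

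The core readouts of NF-kappaB had no called contrast. Among 18 NF-kappaB subunits and feedback regulators, limma called 0, against 1.56% of all genes. A count of 0 in a list of this size is near that share. At an unadjusted p under 0.05 there were 5, against 14.9% of all genes, and the authors' deposited fold changes also called 0. The median TNF response was 1.39 alone and 1.32 in the presence of BAY-876, with 14 members higher in each, against 19.4% and 19.3% of all genes. The smallest unadjusted p in that list was that of Nfkbib (contrast 0.29, adjusted p = 0.107). Nfkbia, the IkappaB-alpha inhibitor, was at 49.5, 42.9 and 38.8 TPM in control, 43.4, 42.1 and 49.8 with BAY-876, 343, 321 and 341 with TNF, and 304, 321 and 309 with both. Its contrast was -0.15 with a 95% interval of -0.40 to 0.10 (adjusted p = 0.607). Tnfaip3, the A20 deubiquitinase, had means of 1.87, 1.94, 10.7 and 10.6 TPM and a contrast of -0.06 with an interval of -0.37 to 0.26 (adjusted p = 0.899). The intervals do not show that the responses are alike. Of 7 chemokines limma called 0, near the 1.56% of all genes, with 3 at an unadjusted p under 0.05, against 14.9% of all genes, and 1 called from the authors' deposited fold changes. The nearest, Ccl2, had means of 218, 293, 1407 and 1442 TPM and a contrast of -0.39 (adjusted p = 0.0517). Ccl2 passed with a filter of a mean of at least 5 TPM (adjusted p = 0.0393), with quantile normalization (adjusted p = 0.00432), without combination replicate 3 (adjusted p = 0.0231) and from the authors' deposited table (adjusted p = 0.00741).

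The transcription factors Myc and Fosl2 moved in opposite senses within the immediate-early list. Myc was at 388, 391 and 358 TPM in control, 436, 404 and 430.3 with BAY-876, 753, 731 and 721 with TNF, and 1136, 1067 and 1012 with both (contrast 0.38 ± 0.07, adjusted p = 0.019). The combination lay above all other libraries and above the 822 TPM expected. Fosl2 had means of 15.2, 25.98, 34.4 and 41.2 TPM (contrast -0.49, adjusted p = 0.0386). Myc passed in 7 of the 12 fits that left out 1 library and Fosl2 in 1.

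Of the genes of glucose uptake and use, 0 of 6 glucose transporters, 1 of 3 glucose-sensing genes and 2 of 21 glycolysis genes were called, against 1.56% of all genes. By limma 1 transporter was at an unadjusted p under 0.05, and the authors' deposited fold changes called 1. Slc2a1, which encodes the target of BAY-876, was at 75.4, 80.3 and 74.6 TPM in control, 130.1, 111 and 121 with BAY-876, 89.0, 84.8 and 87.7 with TNF, and 125, 96.0 and 90.3 with both. The 3 combination libraries were widely spread, and the contrast of -0.41 had an adjusted p of 0.193. In the authors' deposited table the difference of the fold changes of Slc2a1 was -0.42 with an adjusted p of 0.00976. Txnip, a glucose-responsive gene whose product restrains glucose uptake, was at 43.0, 43.1 and 44.2 TPM in control, 0.653, 0.303 and 0.517 with BAY-876, 16.2, 10.6 and 8.58 with TNF, and 0.516, 0.553 and 0.223 with both. Each agent alone lowered it, and the combination overlapped BAY-876 alone. The contrast of Txnip was 1.78 ± 0.26 (adjusted p = 0.00781, or 0.0881 with a pseudocount of 0.1), but the additive expectation was -0.586 TPM, a level that no library can reach. The exons of Txnip overlap Gm15441 on the opposite strand. Of the 94 genes above 0, 8 had an expectation below 0 TPM, namely Txnip, Ifit1, Amot, Cd38, Gm15441, Gm48558, H2bc13 and Inmt, listed after their values were seen. Ifit1, an interferon-induced antiviral gene, had a contrast of 1.15 (adjusted p = 0.0195), was the only called member of 15 interferon-stimulated genes (6.67%, against 0.736% of all genes called above 0), and did not pass with a pseudocount of 0.1 (adjusted p = 0.201). Among the 105 below 0 there were 0.

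The glycolysis list had a median contrast of -0.14, with 18 of 21 members below 0. Tpi1, triose phosphate isomerase, was called below 0 with means of 699, 640.1, 734 and 534 TPM (contrast -0.33, adjusted p = 0.0277), and it passed in 5 of the 12 fits that left out 1 library. Slc16a1, which encodes the lactate transporter MCT1, was called above 0 (contrast 0.26, adjusted p = 0.0427) and passed in 1 of the 12. Hif1a, the oxygen-responsive transcription factor, was at 172, 162 and 166 TPM in control, 264, 249 and 272 with BAY-876, 144, 142 and 142 with TNF, and 179, 149.8 and 164 with both. BAY-876 alone stood above all other libraries, and the combination overlapped control (contrast -0.45 ± 0.08, adjusted p = 0.0195). Hif1a passed in 7 of the 12. Tpi1 has near-identical copies in the genome and exons that overlap Spsb2.

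By limma, 0 were called of 12 Bcl2 family genes, 26 cell cycle genes, 20 proteasome genes, 24 oxidative phosphorylation genes and 21 genes of the tricarboxylic acid cycle, where 1.56% of all genes were called, so that a count of 0 in lists of this size is near that share. At an unadjusted p under 0.05 there were 3, 4, 2, 1 and 4, against 14.9% of all genes, and the authors' deposited fold changes also called 0 in each. The nearest of these by p were Bok (-0.20, adjusted p = 0.193), Ccnb2 (-0.19, adjusted p = 0.127), Psmc2 (0.17, adjusted p = 0.137), Uqcrfs1 (-0.19, adjusted p = 0.273) and Idh3a (-0.29, adjusted p = 0.175). In the endoplasmic reticulum list, the chaperone Hspa5 was called (0.22, adjusted p = 0.0251), passed in 4 of the 12 fits and did not pass with quantile normalization (adjusted p = 0.307).

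**Figure D4:**
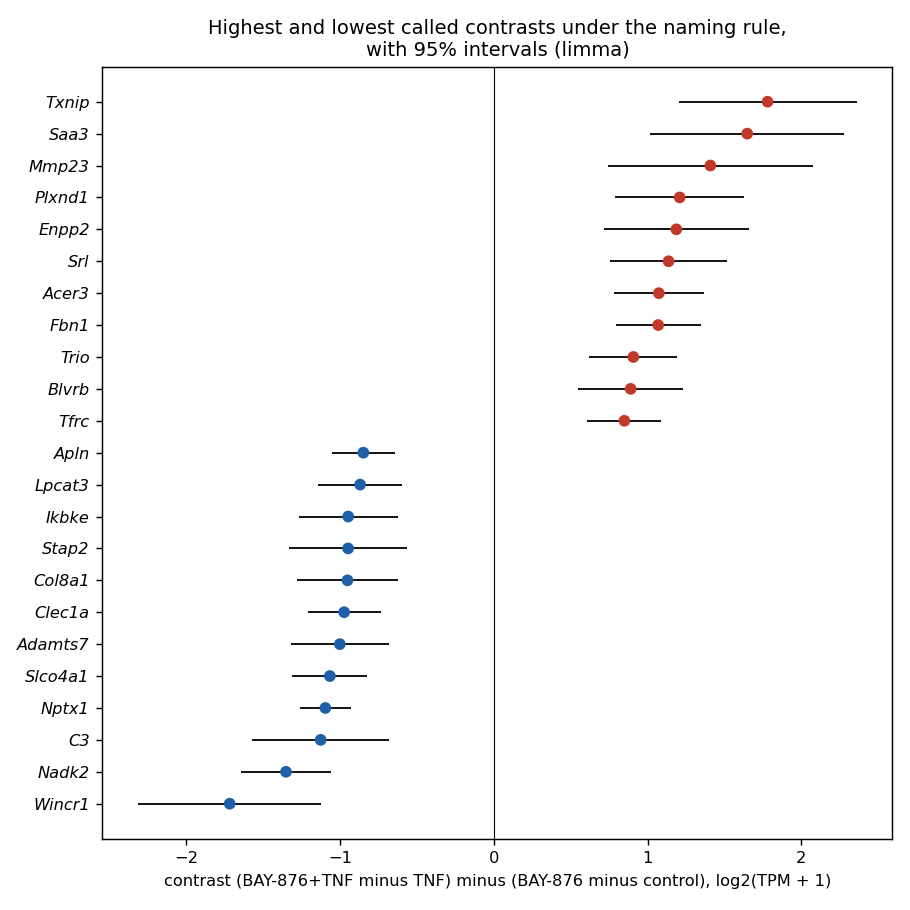
Contrast (horizontal axis, log2) with its 95% interval from limma for the highest and the lowest called genes with a group mean of at least 5 TPM, without predicted genes. Red marks contrasts above 0, from Tfrc at 0.85 to Txnip at 1.78, and blue those below, from Apln at -0.85 to Wincr1 at -1.72.

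Plxnd1 and Acer3 were lowered by each agent alone and stood higher in the combination than with BAY-876 alone. Plxnd1, a semaphorin receptor, was at 19.0, 28.2 and 28.2 TPM in control, 15.7, 15.0 and 16.6 with BAY-876, 15.4, 12.8 and 13.9 with TNF, and 20.0, 24.2 and 20.6 with both. The combination overlapped control and lay above both single agents (contrast 1.21 ± 0.19, adjusted p = 0.0106). Acer3, a ceramidase, had means of 14.5, 7.18, 8.74 and 9.81 TPM (contrast 1.07, adjusted p = 0.00328). Its combination libraries stayed below control.

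For the matrix protein Fbn1 and the guanine nucleotide exchange factor Trio, TNF alone gave the lowest level and BAY-876 did not lower it further. Fbn1 was at 25.3, 24.7 and 24.3 TPM in control, 15.4, 13.7 and 15.1 with BAY-876, 7.12, 6.96 and 6.60 with TNF, and 10.5, 9.10 and 7.91 with both. The combination of Fbn1 lay above TNF alone (contrast 1.07 ± 0.13, adjusted p = 0.00241). Trio had means of 72.2, 41.9, 20.5 and 22.7 TPM (contrast 0.91, adjusted p = 0.00663), and its combination overlapped TNF alone.

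Enpp2, which encodes the secreted enzyme autotaxin, and Srl, sarcalumenin, responded to TNF by 0.45 and -0.14 without BAY-876 and by 1.64 and 1.00 with it. Enpp2 was at 9.09, 13.2 and 11.2 TPM in control, 6.26, 5.50 and 5.87 with BAY-876, 16.3, 12.6 and 17.9 with TNF, and 21.4, 22.95 and 17.1 with both (contrast 1.19 ± 0.21, adjusted p = 0.0192). It did not pass without BAY-876 replicate 2 (adjusted p = 0.0557). Srl had means of 20.6, 12.6, 18.5 and 26.3 TPM (contrast 1.14, adjusted p = 0.00869). Mmp23, a matrix metalloprotease, had means of 2.71, 1.89, 2.37 and 6.05 TPM (contrast 1.41, adjusted p = 0.0447). It passed in only 1 of the 12 fits that left out 1 library. The difference of the authors' deposited fold changes of Mmp23 was 1.85 with an adjusted p of 0.106.

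Genes called with BAY-876 in the independent 36 h libraries had median contrasts near 0. Of the 933 genes that rose there, 526 had a contrast below 0 and 407 above (43.6% above, against 50.3% of all genes). Their median contrast was -0.03 and lay between -0.042 and -0.013 in the fits that left out 1 library. Of these genes, 22 were called above 0 (2.36%) and 28 below (3%), against 0.736% and 0.822% of all genes. Their median response to BAY-876 was 0.11 without TNF and 0.06 with it. The 904 genes that fell had a median contrast of 0.00, with 7 called above 0 (0.774%) and 6 below (0.664%). Of the called genes measured at 36 h, 22 of 90 above 0 and 28 of 101 below 0 were among those that rose (24.4% and 27.7%, against 7.72% of all genes measured in both experiments).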

How the data were processed

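RNA-seq values of 12 libraries of LLC cells were analysed. RNA was processed by the authors into TPM per gene and deposited in 1 table, whose libraries all sum to the same total, so depth is unknown. DESeq2 1.34.0, Salmon 0.13.1 (0.14.1 for the 36 h libraries), STAR 2.6.1d and the mm10 build are listed in the submitters' processing notes, with no role given. In that table, 24 columns of values matched no sample and were not used. The authors' deposited comparison tables give log2 fold changes with standard errors. The 36 h table holds a normalized count signal deposited by the authors.

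TPM were taken to log2(TPM + 1), genes with at least 1 TPM in at least 3 libraries were kept, and limma 3.58.1 (R 4.3.3, mean-variance trend) was fitted to the 12 libraries with the contrast (both minus TNF) minus (BAY-876 minus control). Adjustment was by Benjamini-Hochberg over all 12780 genes, and an adjusted p under 0.05 was called. The scale understates changes of low genes. The additive expectation is the BAY-876 mean plus the TNF mean minus the control mean on the log2 scale, turned back to TPM. The 36 h values were fitted alike after a filter of 10 normalized counts in at least 3 libraries. The computation was tested on simulated data.

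Named are the 12 highest and 12 lowest contrasts among called genes with a group mean of at least 5 TPM, without predicted genes, mitochondrial transcripts and receptor segments. To these were added up to 4 called members of each list with the smallest p, the member with the smallest p where none was called, and Slc2a1, Txnip, Tnfaip3 and Nfkbia. The lists hold 490 names, of which 410 were tested. The members, lists and rules were chosen with earlier results of these data known. Values of some of these genes are left out and not reported here. Gene coordinates are those of GENCODE M21 on GRCm38.

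Alternatives were a pseudocount of 0.1, a filter on the mean of 5 TPM, no filter, quantile normalization, median centring, the replicate number as a block, the TPM scale, the authors' fold changes, and each library left out. The count without genes whose expectation is below 0 TPM was added after seeing the data.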

Additional observations from a re-analysis of the deposited data

Results flagged for a closer look

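The interaction is itself a test of whether the response to 1 agent differs with the other, and it passed in 94 genes above 0 and 105 below 0. Among the genes described, some passed in opposite directions in the separate tests without and with the other agent. For the response to BAY-876, Plxnd1 (contrast 1.21), Srl (1.14), Fbn1 (1.07) and Blvrb (0.89) were lower without TNF and higher with it. Sod2 (0.34) did the same. Wincr1 (-1.72), Lpcat3 (-0.87) and Apln (-0.85) were higher with BAY-876 without TNF and lower with it. In the authors' deposited fold changes, the response without TNF was 0.81 for Wincr1 with a standard error of 0.64. It was 0.47 ± 0.11 for Lpcat3 and 0.71 ± 0.07 for Apln. For Sod2 it was -0.09 ± 0.07 and for Blvrb -0.25 ± 0.17. For the response to TNF, Plxnd1, Acer3 (1.07), Tfrc (0.85), Asns (0.46) and Slc7a3 (0.85) were lower without BAY-876 and higher with it. Slco4a1 (-1.06), Fdps (-0.60), Elovl6 (-0.55) and Apln were higher without BAY-876 and lower with it.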

How the results depend on the processing

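The counts of 94 genes above 0 and 105 below 0 depend on the scale and the source. On the TPM scale, where additive means added TPM, 333 and 205 genes passed, of which 83 and 90 were among the 94 and 105. The difference of the authors' deposited fold changes gave 150 and 182 of 12937 genes, 70 and 87 of them shared, and all 190 called genes in both tables had the same sign. With no filter the counts were 68 and 92, with a pseudocount of 0.1 82 and 104, and without genes whose expectation is below 0 TPM 86 and 105. Leaving out 1 library gave 47 to 131 genes above 0 and 62 to 119 below, a ratio of the spreads of the TNF response of 0.944 to 0.996, and of the BAY-876 response of 0.925 to 1.01. The latter ratio was 0.999 with a pseudocount of 0.1, 0.990 with a mean of at least 5 TPM and 0.942 with quantile normalization. The median contrast of the genes that rose at 36 h ran from -0.042 to -0.013 over the libraries left out, and of those that fell from -0.011 to 0.021. Of 51 called genes followed by name, 51 kept their sign in every fit that left out 1 library and 31 also passed in each that tested them. The direction of Krt8, an LLC marker, was reversed on the TPM scale (37.4 TPM, adjusted p = 0.00682) against a contrast of -0.18 that did not pass, and the cause was not tested. The replicate numbers did not pair the libraries, as the deviations of 18 same-numbered pairs correlated at -0.192 to 0.12 with only 1 over 0.1. With the replicate number as a block, 81 and 93 genes passed. Depth is unknown from TPM, so low values carry no counting interval.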
